A study of Homo sapiens with 12 samples.

Results

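Cadherins and protocadherins are the adhesion receptors described here, as measured in RBE, an established human line of intrahepatic cholangiocarcinoma. The members are the protein-coding genes of the RefSeq annotation of hg38, not on Y, whose symbol is CDH followed by a digit or starts with PCDH, without CDH1 and CDH2. They number 86 of 19970 protein-coding genes, 33 that stand alone and 53 in the nested protocadherin clusters of chromosome 5. The rule itself uses no measured value.

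N4-acetylcytidine (ac4C) is an acetylated cytidine in RNA, written by the acetyltransferase NAT10. RBE cells stably transduced with lentivirus carrying a hairpin against NAT10 (sh-NAT10) were set against cells with a control hairpin (sh-NC). The labels carry the same treatment text for both arms, which names only the NAT10 virus, at a multiplicity of infection of 20 with 10 μg/mL polybrene, then 2 μg/mL puromycin and expansion of the resistant colonies. They call the molecule polyA RNA, while the protocol starts from total RNA. RNA fragments of 100 to 200 bp were immunoprecipitated with an ac4C antibody beside an input, giving 12 libraries in 4 groups of 3. The deposited values are 1 list of peaks per arm, 34365 peaks for the control and 28047 for the knockdown, so no value here has a replicate error and none is tested. Read depth is unknown, and less acetylation, less RNA and fewer reads cannot be told apart. Of 10 cholangiocyte markers, 8 had a peak in both lists, KRT7 with 11 control and 10 knockdown peaks and KRT19 with 5 and 4, while EPCAM and CFTR had none in either. These lists are no measure of RNA level, so the markers and NAT10 itself do not check the labels.

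Classical cadherins join cells by binding the same cadherin on the neighbour and are tied to actin through catenins. Type I members make strong epithelial and neural junctions, and type II members sort neurons, vessels and mesenchyme. Protocadherins adhere more weakly. The delta families are best known from the developing brain, and the clustered family gives each neuron a surface identity. None of the non-clustered brain members is a usual marker of bile duct epithelium.

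Peaks on these genes were far fewer in the knockdown list. The 33 non-clustered members carried 157 control peaks and 36 knockdown peaks, 22.9% as many. The corresponding percent was 82.4% over all protein-coding genes and 64.5% over those of 100 kb or more. Of the 24 members with any peak, 21 had fewer knockdown than control peaks (87.5%, 95% Wilson interval 69.0 to 95.7, counting error only), CDH3 and CDH23 had equal numbers, and CDH6 had more. The same direction was seen in 46.0% of all protein-coding genes with a peak and in 59.0% of those of 100 kb or more. The median difference, knockdown minus control, was -4.5 peaks for the members, 0 for all protein-coding genes with a peak and -1 for the long ones.

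A knockdown peak was missing altogether on 10 of the 24 members with a control peak (41.7%, interval 24.5 to 61.2), against 26.3% of all protein-coding genes with a control peak and 25.0% of the long ones. No member had a knockdown peak only, which was the case for 17.4% of all protein-coding genes with a knockdown peak and 10.5% of those of 100 kb or more. Members rich in control peaks were among the 10. Of 13 members with 5 or more control peaks, 6 had no knockdown peak (46.2%, interval 23.2 to 70.9), namely CDH10, CDH11, CDH13, PCDH10, PCDH17 and PCDH19. Among all protein-coding genes with 5 or more control peaks the share was 9.42%, and among the long ones 12.7%. That minimum of 5 was chosen after the values were seen.

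**Figure D1:**
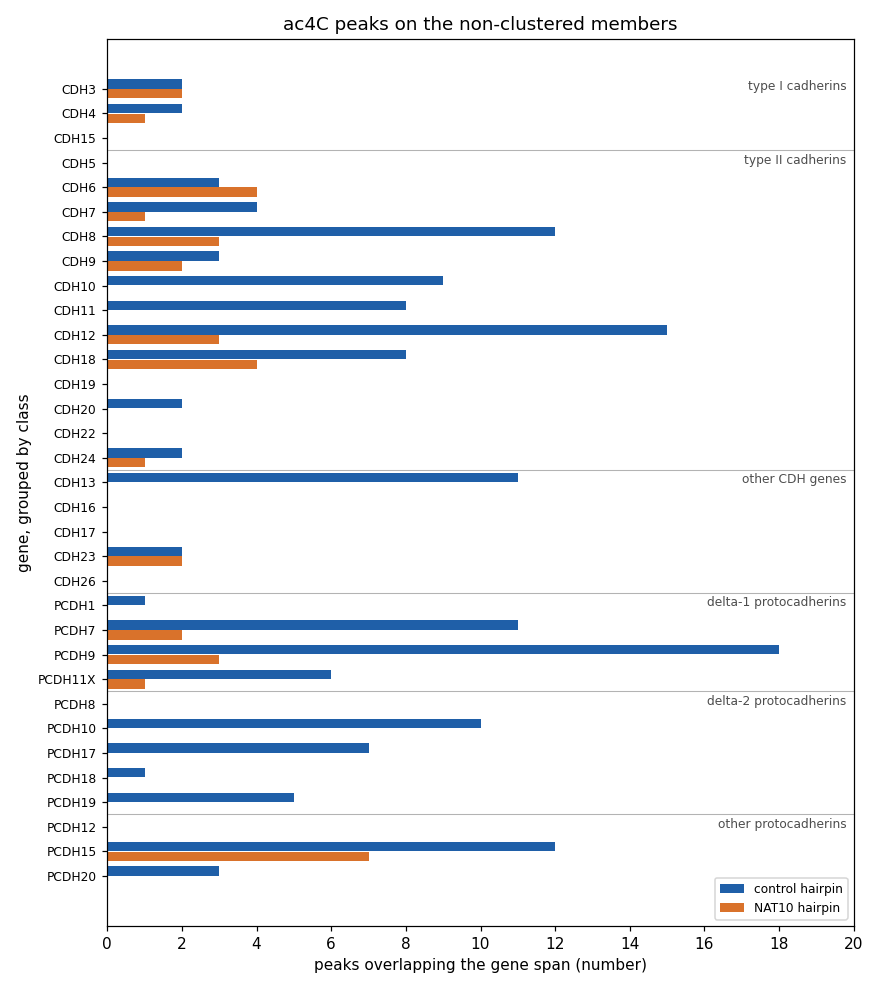
The horizontal axis gives the number of peaks overlapping each gene span in the control list (blue) and the knockdown list (orange), with the 33 non-clustered members in rows grouped by class. The 4 delta-2 members with peaks show blue bars alone, and CDH6, with 3 and 4 peaks, was the member with more knockdown peaks.

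The type II cadherins held the most peaks, with 66 control and 18 knockdown peaks. CDH12, a brain cadherin (chromosome 5, 21750673 to 22853344), had 15 control and 3 knockdown peaks, and CDH8, a synaptic cadherin (chromosome 16, 61647250 to 62036438), had 12 and 3. CDH10, another neuronal cadherin (chromosome 5, 24487100 to 24644978), had 9 and 0. CDH11, known from mesenchyme and bone (chromosome 16, 64943753 to 65123744), had 8 and 0. The control peaks of CDH12 lay along the whole gene. Its widest peak, 214088 bp from 22638982 to 22853069 at the start of the gene, was in both lists with scores of 57.01 and 25.46. The adjacent peak, from 22505349 to 22638706, was in both lists as well, with a score of 0. A peak further along the gene, from 22278062 to 22405280 with a score of 27.39, was in the control list alone. On CDH8 4 narrow control peaks stood close together near the end of the gene, between 61652692 and 61654091, with scores from 10.33 to 11.90, and none recurred. The knockdown peaks of CDH8 lay in the middle of the gene, where 2 wide peaks nearly matched control peaks in position.

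CDH10 and CDH11 had no wide or narrow peak left in the knockdown list. On CDH10 the narrow control peak of highest score (12.90) was 325 bp wide, from 24487300 to 24487624, at the end of the gene. The highest score on CDH10 (14.35) belonged to a peak on the plus strand, opposite to the gene, from 24554168 to 24609764. On CDH11 the highest score (14.88) was that of an 11637 bp peak from 64993013 to 65004649.

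CDH18, also known from the brain (chromosome 5, 19471296 to 20575713), had 8 control and 4 knockdown peaks, and each of the 4 had the coordinates of a control peak. Its control peak of highest score (27.8), from 19747219 to 19803828, was not among them. CDH7 had 4 and 1, CDH9 had 3 and 2, CDH20 had 2 and 0, and CDH24 had 2 and 1. Of the 2 CDH9 knockdown peaks, 1 lay almost wholly before the start of the gene and overlapped it by a few bases. CDH6, a kidney and neural crest cadherin (chromosome 5, 31193686 to 31329146), went the other way with 3 and 4 peaks. Its control peak of 100 bp at 31297296 to 31297395 overlapped a knockdown peak of 25 bp at 31297346 to 31297370. Its other control peaks, at 31323254 to 31323403 and 31323754 to 31323803, had no counterpart, and its 3 remaining knockdown peaks lay at other sites. Thus CDH6 kept a similar number of peaks at largely different positions. CDH5, the endothelial cadherin, CDH19 and CDH22 had no peak in either list.

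Among type I cadherins, CDH3, the P-cadherin of epithelia, had 2 peaks in both lists, and CDH4, the retinal cadherin, had 2 and 1. CDH15, the muscle cadherin, had none. The main CDH3 peak, 30659 bp wide at 68645732 to 68676390 on chromosome 16, had the same coordinates in both lists. CDH13, a cadherin held in the membrane by a lipid anchor instead of a transmembrane segment (chromosome 16, 82626969 to 83800640), had 11 control peaks and 0 knockdown peaks. Of the 11, 9 were wide, and the one of highest score (26.23) ran from 83602593 to 83654842. The 2 narrow ones overlapped each other on opposite strands, from 83795083 to 83795357 and from 83795166 to 83795365. CDH23, a tip-link cadherin of inner-ear hair cells, had 2 in both, but all 4 of these peaks also overlap VSIR, a gene within its span, so their assignment is uncertain. CDH16 and CDH17, the kidney and liver-intestine cadherins, and CDH26 had no peak.

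The delta-1 protocadherins had 36 control and 6 knockdown peaks. PCDH9 (chromosome 13, 66302834 to 67230336) had the most peaks of any non-clustered member, with 18 control and 3 knockdown peaks. PCDH7 (chromosome 4, 30720369 to 31146800) had 11 and 2, and PCDH11X (chromosome X, 91779375 to 92623230) had 6 and 1. On PCDH7 the peak of highest score, 51090 bp from 30869085 to 30920174, was in both lists, with scores of 191.9 and 16.72. The next PCDH7 peaks by score, from 30732962 to 30869034 (70.28) and from 30989545 to 31142477 (17.47), were in the control list alone. On PCDH9 3 narrow peaks and 3 of 1100 to 1504 bp followed each other within 67224998 to 67230076, at the start of the gene, and none had a knockdown counterpart. PCDH11X has a near-identical copy on Y, so reads could be split between them. PCDH1, which is also known from airway epithelium, had 1 and 0.

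The delta-2 protocadherins, which can steer actin through the WAVE complex, had 23 control peaks and 0 knockdown peaks. PCDH10 (chromosome 4, 133149294 to 133208606) had 10 control peaks, PCDH17 had 7, PCDH19, a gene of inherited epilepsy, had 5, and PCDH18 had 1. The PCDH10 peak of highest score (36.14) was 7978 bp wide, from 133155014 to 133162991, and 4 narrow peaks lay in the first stretch of the gene, from 133149494 to 133150443. PCDH17 had scores from 10.03 to 14.29, and the highest on PCDH19 was 17.63. PCDH8 had none in either list. Of the remaining protocadherins, PCDH15 (chromosome 10, 53802771 to 55627942), the partner of CDH23 in the tip link, had 12 and 7 peaks and PCDH20 had 3 and 0. PCDH15 kept the most knockdown peaks of the non-clustered members, and 6 of its 7 had the coordinates of a control peak. The control peak of highest score on PCDH15 (39.34), from 54897478 to 55166577, was among them, with a knockdown score of 18.93. PCDH12, an endothelial protocadherin, had none.

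Narrow peaks were retained in smaller proportion than wide ones. Each deposited peak is a single block that can include introns, and here peaks up to 1000 bp are called narrow. The non-clustered members had 72 narrow control peaks and 6 narrow knockdown peaks (8.33% as many), against 85 and 30 wide ones (35.3%). Over all protein-coding genes the corresponding figures were 80.2% and 87.6%, and over those of 100 kb or more 61.7% and 69.1%. A narrow control peak was found on 22 members and a narrow knockdown peak on 5 of them. The other 17 of the 22 had none, against 31.9% of all protein-coding genes with a narrow control peak.

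**Figure D2:**
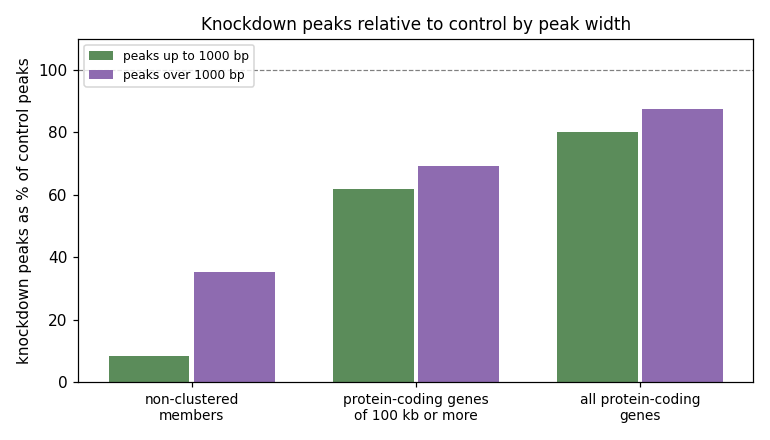
The vertical axis gives knockdown peaks as a percent of control peaks, for peaks up to 1000 bp (green) and over 1000 bp (purple), and the dashed line marks equal numbers. The members stand at 8.33% and 35.3%, below long protein-coding genes at 61.7% and 69.1%.

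Position by position, few narrow control peaks recurred. A peak is said to recur where a knockdown peak overlaps it on its own strand. Of the 72, 4 recurred (5.56%, interval 2.18 to 13.4), against 41.9% of narrow control peaks on all protein-coding genes and 30.0% on long ones. The 72 lie on 22 members, some of them close together, so they are not independent and the interval can be too narrow. The authors gave each peak a score, on a scale that no source used here explains, and it is used only within a list. Of the 72 narrow control peaks 71 scored from 10 to under 15, and 4.47% of all control peaks scored under 10. In that score range 4.23% of the members' narrow control peaks recurred (3 of 71, interval 1.45 to 11.7), against 26.4% on long protein-coding genes and 37.8% on all protein-coding genes. The low recurrence was also seen in this range, which held 98.6% of the members' narrow control peaks and 82.3% of those on long genes. Scores were not matched within the range.

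The narrow peaks that recurred lay mostly on pseudogenes within the members. A peak on CDH8 lay on RN7SKP76, a copy of the 7SK small nuclear RNA, where the control peak ran from 61743179 to 61743328 with a score of 100.9 and the knockdown peak from 61743154 to 61743378 with a score of 10.98. On PCDH7 such a peak lay on MTCYBP43, a copy of the mitochondrial cytochrome b gene, on the strand opposite to PCDH7. On CDH3 it lay on the pseudogene LOC100418868, on the strand opposite to the main CDH3 peak. The fourth was the CDH6 peak described above. Outside pseudogenes, the members had 67 narrow control peaks and 3 narrow knockdown peaks, the latter on CDH6, with 2, and on CDH24, with 1. Reads of pseudogenes can come from their parent genes, so these peaks are uncertain.

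Many narrow control peaks lay near the ends of the genes, and a peak on a short gene can count at both. Of 66 on the strand of the gene, 21 lay within 10 kb of its start and 29 within 10 kb of its end. The cadherins had such peaks mainly at the end, 4 of 5 on CDH8, 3 of 6 on CDH10 and 2 of 3 on CDH12. Protocadherins, whose first coding exon is large, had them at the start as well. On PCDH10, 5 of 8 lay within 10 kb of the start and 0 within 10 kb of the end, and on PCDH7 and PCDH9, 3 lay at either end. In the knockdown list 4 narrow peaks were on the strand of the gene, 1 within 10 kb of the start and 1 within 10 kb of the end, too few to describe a pattern. Positions of narrow peaks on other protein-coding genes are not given, so whether the members differ in this was not tested.

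**Figure D3:**
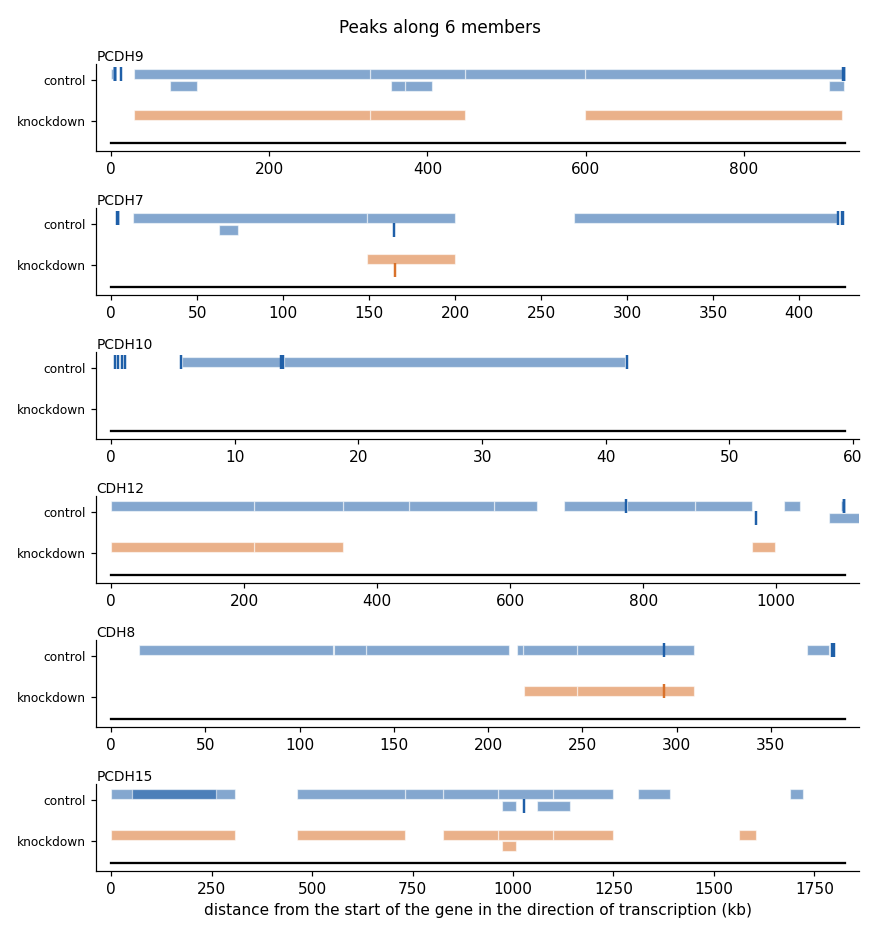
The horizontal axis of each panel is the distance in kb from the start of the gene (black line, whole span), with ticks for narrow peaks and bars for peaks over 1000 bp and those on the opposite strand drawn lower. On PCDH9, PCDH7, CDH12 and PCDH15 long bars recur in the knockdown list (orange), while of the narrow ticks, drawn in blue for the control list, PCDH7 and CDH8 have 1 each in the knockdown list. Direction for PCDH10 was taken from its peaks.

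Wide peaks that recurred mostly had the same boundaries in both lists. Of 85 wide control peaks on the non-clustered members, 25 recurred (29.4%), against 41.4% on long protein-coding genes, and 21 had identical coordinates in both lists. These 21 lay on 10 members, 6 of them on PCDH15, 4 on CDH18 and 3 on PCDH9, and spanned from 30.7 to 325 kb. A score of 0 was listed in both lists for 7 of them. The share of wide peaks with identical coordinates over other genes is not given, so this trait is not shown to be particular to the members. On PCDH9 the peak from 66903589 to 67201022 had a control score of 230.4 and a knockdown score of 17.34. On PCDH11X the peak from 91883996 to 92201387 scored 75.93 and 136.7. Scores were given within each list and are set side by side without a comparison.

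The clustered protocadherins are 3 neighbouring gene arrays on chromosome 5. In the alpha and gamma arrays each variable first exon, with its own promoter, is spliced to constant exons at the end of the array, so all spans end at the same base and a peak there is counted for every member. Distinct peaks are therefore counted per locus. The PCDHA locus (140786140 to 141012347, 15 genes) had 8 control peaks and 1 knockdown peak. The PCDHB locus (141051374 to 141249365, 16 genes) also had 8 and 1, and the PCDHG locus (141330514 to 141512975, 22 genes) had 11 and 4. Together the loci carried 27 control and 6 knockdown peaks, 22.2% as many, close to the 22.9% of the non-clustered members.

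Within PCDHA, 3 narrow control peaks lay near the shared end, at 141009714 to 141010213, 141010739 to 141011163 and 141011189 to 141011488. The single knockdown peak, at 141011014 to 141011113, overlapped the second of them. A further pair of narrow control peaks followed the start of PCDHAC2, at 140968132 and 140968832, with no counterpart. In PCDHG the narrow control peak nearest the shared end, at 141512849 to 141512948, had the highest score of the locus in the control list (17.25) and no knockdown counterpart. The neighbouring peak that starts at 141510949 was in both lists, with a width of 100 bp in the control and 50 bp in the knockdown. The constant ends thus kept a peak in both arrays.

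Single variable segments held narrow peaks of low score in the control list. Narrow control peaks inside the next 5 kb after a member's own start were found for 10 members, PCDHAC2, PCDHB4, PCDHB16, PCDHGB2, PCDHGB4, PCDHGB5, PCDHGA9, PCDHGB6, PCDHGA10 and PCDHGC3, named after their values were seen. PCDHB4 had 3 of them, at 141122318 to 141122417, 141122943 to 141122967 and 141122993 to 141123017, and PCDHB16 had 1, at 141182887 to 141182986. None of these narrow control peaks overlapped a knockdown peak. PCDHGB4 had a knockdown peak elsewhere in the same stretch, at 141388434 to 141388458, against its control peak at 141390109 to 141390183. Exons of these paralogs are alike, so reads could be shared among them.

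**Figure D4:**
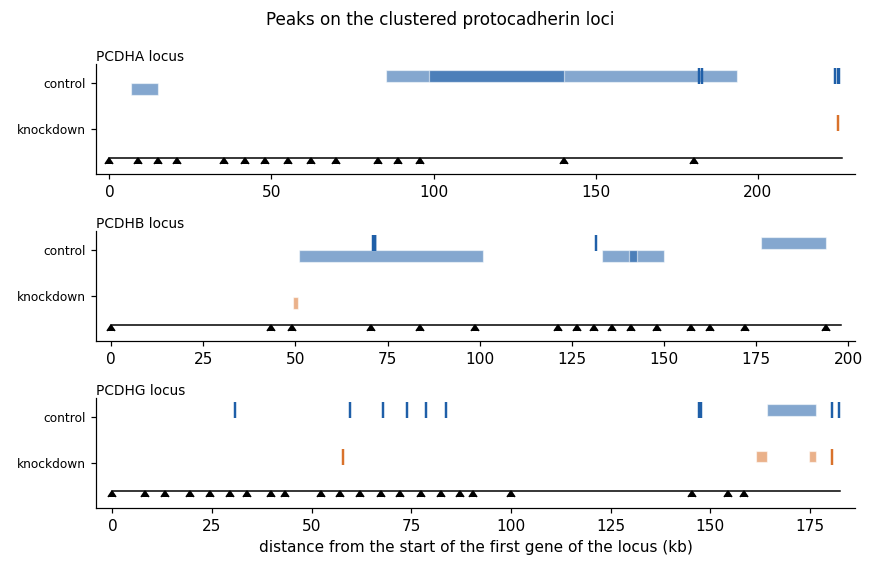
The horizontal axis is the distance in kb from the first gene start of each locus, triangles mark the gene starts, ticks are peaks up to 1000 bp and bars wider ones, with those on the minus strand drawn lower. The PCDHG row shows control ticks (blue) spread along the array and at its end, against 4 knockdown peaks (orange), and the PCDHA and PCDHB rows show 1 knockdown peak each.

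Which variable exon is transcribed is set by its promoter, and many of these promoters share an element with the core CGCT. Promoters are printed below because narrow control peaks lay shortly after their gene starts. On PCDHB4 and PCDHB16 these peaks lay in the span of 1 member and on the others in several nested spans. For 9 of the 10 members the RefSeq table (GRCh38.p14) holds a promoter that begins at the gene's own start, and the 100 bases before that start are printed 5′ to 3′ on the plus strand of chromosome 5, with each CGCT in capitals. The first, of PCDHAC2, covers 140966376 to 140966475, that of PCDHB4 141121718 to 141121817 and that of PCDHGC3 141475866 to 141475965.
PCDHAC2: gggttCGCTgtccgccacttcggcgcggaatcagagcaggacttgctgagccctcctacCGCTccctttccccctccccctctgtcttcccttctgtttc
PCDHB4: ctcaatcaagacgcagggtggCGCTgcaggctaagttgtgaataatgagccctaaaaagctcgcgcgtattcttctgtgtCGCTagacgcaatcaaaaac
PCDHB16: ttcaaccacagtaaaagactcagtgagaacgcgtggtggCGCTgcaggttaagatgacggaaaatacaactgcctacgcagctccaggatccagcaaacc
PCDHGB4: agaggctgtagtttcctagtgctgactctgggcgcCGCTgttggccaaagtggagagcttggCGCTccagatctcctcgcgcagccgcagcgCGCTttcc
PCDHGB5: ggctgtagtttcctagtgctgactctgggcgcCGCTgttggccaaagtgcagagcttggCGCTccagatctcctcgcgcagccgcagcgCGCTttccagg
PCDHGA9: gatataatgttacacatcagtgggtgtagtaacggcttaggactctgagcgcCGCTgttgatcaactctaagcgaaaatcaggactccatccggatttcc
PCDHGB6: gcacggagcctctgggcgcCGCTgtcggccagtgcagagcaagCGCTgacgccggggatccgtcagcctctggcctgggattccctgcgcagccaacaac
PCDHGA10: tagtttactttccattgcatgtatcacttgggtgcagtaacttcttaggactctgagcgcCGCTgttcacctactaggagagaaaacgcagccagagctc
PCDHGC3: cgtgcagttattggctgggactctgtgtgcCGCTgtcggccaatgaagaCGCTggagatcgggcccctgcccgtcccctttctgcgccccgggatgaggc
Each of the 9 holds the letters CGCT at least once. Only these letters were searched, not the whole element, so a CGCT in capitals need not be part of it. On the strand of the gene CGCT was found in this window in 44 of 46 clustered promoters (95.7%), against 35.8% of 13792 protein-coding promoters and 7 of 18 non-clustered members. With its reverse complement AGCG counted too, the shares were 95.7% and 55.9%, with 12 of 18 non-clustered members. The copy nearest the gene start began at a median of -47.5 bases from it (interquartile range -60.25 to -38). These letters describe the promoters and are no measure of transcription in RBE cells.

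The cadherins left out by the rule, CDH1 and CDH2, the E- and N-cadherins, did not share the direction. CDH1 had 2 control and 3 knockdown peaks, and CDH2 had 10 and 11. Over 55 partner genes in 6 lists, among them catenins, desmosomal cadherins and the WAVE complex, there were 252 control and 211 knockdown peaks (83.7%). Of the 41 with any peak, 18 had fewer, 6 as many and 17 more knockdown peaks, with a median difference of 0. The background share of genes with more knockdown peaks was 33.3%. Of the 34 that the control list marked, 4 lacked a knockdown peak, CTNND2, CELSR2, CELSR3 and CLSTN2, where the share over all protein-coding genes was 26.3%. Among the 37 partners that the knockdown list marked, 7 lacked a control peak, against 17.4% of all protein-coding genes.

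Among 15 catenins and other cytoplasmic partners, 5 had fewer, 1 as many and 6 more knockdown peaks. CTNNA3 had 20 control and 8 knockdown peaks, AFDN, which links junctions to actin, had 10 and 14, and PKP4 had 11 in both.

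The 7 desmosomal cadherins had 1 control and 6 knockdown peaks, DSC2 with 0 and 3, DSG2 with 1 and 2 and DSC1 with 0 and 1. Of the 9 large and seven-pass cadherins 4 had fewer and 2 more knockdown peaks. CELSR1 had 17 and 10, FAT1, known from epithelia and tumours, had 6 and 13, and FAT3, known from neurons, had 17 and 1. Cadherin-related genes summed to 14 and 13 peaks, among them CLSTN1 with 8 in both, CLSTN3 with 3 and 2 and RET with 1 and 2. Processing and signalling partners summed to 79 and 68, with CYFIP2 at 18 and 14, NCKAP1 at 13 and 9 and PTK2 at 11 in both. Regulators of the clusters summed to 18 and 15, with RAD21 at 8 in both, WIZ at 5 and 3 and CTCF, which loops the cluster promoters to their enhancers, at 4 and 2.

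Markers of neurons and astrocytes moved with the members. Control peaks lay on all 12 neuronal markers and knockdown peaks on 6, and these numbered 120 and 17 (14.2%), with TUBB3 alone going the other way at 5 and 8. The range per gene was 1 to 27 control peaks and 0 to 8 knockdown peaks. Of 7 astrocyte markers 4 carried control peaks and 1 a knockdown peak, with 20 and 1 peaks in all and GFAP, S100B and ALDH1L1 at 0 in both lists. Knockdown peaks were 82.4% as many as control peaks over all protein-coding genes and 64.5% over the long ones. A knockdown peak was missing on 6 of the 12 neuronal and 3 of the 4 astrocyte markers with a control peak. The share was 26.3% of all protein-coding genes with a control peak and 25.0% of the long ones. Cholangiocyte markers summed to 45 and 44, endothelial markers to 2 and 1 and fibroblast markers to 3 and 1. Their part in the members' result was not tested.

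**Figure D5:**
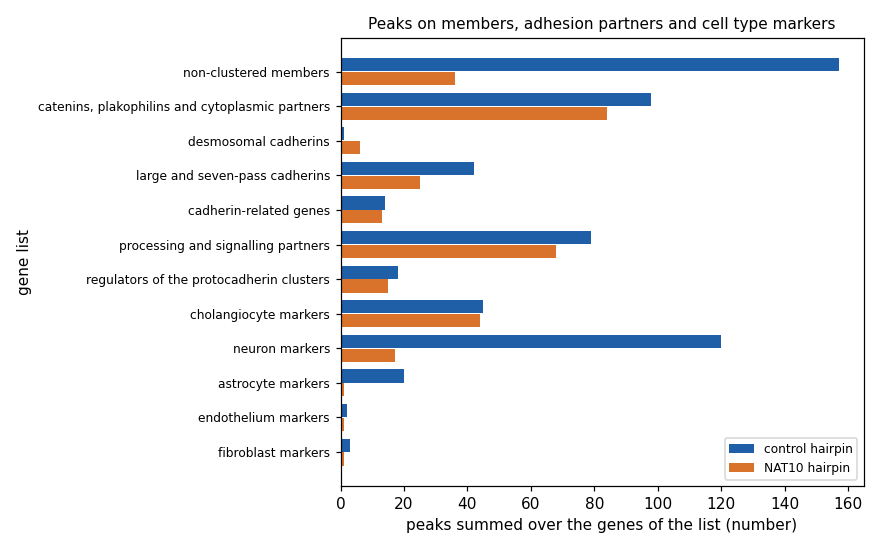
The horizontal axis gives peaks summed over the genes of each list in the control (blue) and knockdown (orange) lists. Members, at 157 and 36, and neuronal markers, at 120 and 17, show the widest gaps, while catenins and other cytoplasmic partners, at 98 and 84, and cholangiocyte markers, at 45 and 44, are near equal.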

How the data were processed

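The tools Bowtie2 2.4.1 and fastp 0.20.1 and the build hg38 are named in the submitters' processing notes. No source used here gives how peaks were called, at which threshold, with which input or from which replicates. The authors deposited 1 list per arm in 12 columns, with a score per peak of unstated scale and the width of its single block as the other value. The control list was matched by its name and the remaining list taken as the knockdown list. No replicate lists were analysed here, so each list is 1 sample and no test or p-value is given.

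Peaks were assigned to RefSeq gene spans (GRCh38.p14) by an overlap of at least 1 bp on either strand. Recurrence needed 1 bp on the same strand. Strand was known for 21 of the 33 non-clustered members, and otherwise taken from most of a gene's peaks. Intervals are 95% Wilson intervals, for counting error only, and treat the peaks or genes counted as independent. The counting was checked on the control list. A simulated copy emptied of peaks on 200 genes gave 0 peaks on 200 of them, an outcome fixed by its construction. Counts on the control list equalled those of bedtools 2.31.1 for 19970 of 19970 genes. Python 3.11.15, NumPy 2.4.6, pandas 2.3.3, SciPy 1.17.1 and matplotlib 3.10.9 were used.

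Members and lists were chosen with earlier results of these data known. Every non-clustered member with a peak is named, with coordinates for the 12 with the most peaks in no other protein-coding gene, and up to 3 partners per list, those with the most peaks. The 4 partners without a knockdown peak are named beyond that rule, after their values were seen. One further marker list is not reported here. Alternatives covered score, list length, overlap, shared genes, width, merging and strand.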

Additional observations from a re-analysis of the deposited data

How the results depend on the processing

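Of 42 alternative values, 34 stayed within counting error or within 1.5 times the main value and 8 did not. A turn of direction was judged only for knockdown peaks as a percent of control peaks. That covered 8 values on the non-clustered members and 7 on the clusters, and 0 of them turned. Knockdown peaks as a percent of control peaks on the non-clustered members moved from 22.9% to 8.33% with peaks up to 1000 bp and to 35.3% with peaks over 1000 bp, a setting chosen after seeing the data. The share of their control peaks that recurred moved from 18.5% to 5.56% and 29.4% under the same settings. With a score of 20 or more, 9 in place of 21 members had fewer knockdown peaks, since 12 kept any peak. At that score 8 of the 17 partners marked by the control list were absent from the knockdown list, in place of 4 of 34. Partners marked by the knockdown list alone numbered 9 in place of 7. Of the members, 8 of 12 were marked by the control list alone, in place of 10 of 24. The share among partners was thus closer to that among members at this score. Shares over all protein-coding genes are not given at a score of 20 or more, so neither share has a background there. Members with a control peak only numbered 17 in place of 10 with peaks up to 1000 bp, and 6 with peaks on the strand of the gene, where 17 members were counted. Members of unknown strand could not be counted there, among them CDH11, CDH13, PCDH10 and PCDH20, which had control peaks only. With the lowest-scoring control peaks dropped until both lists were equally long, 36 knockdown peaks stood against 111 control peaks (32.4%). Of the 22 members that then had any peak, 16 had fewer. The corresponding values over all protein-coding genes are not given for the shortened control list. On the clusters no value can be given at a score of 20 or more, where the control list held 0 peaks and the knockdown list 1. No paired analysis was possible because each arm has 1 list, and for that reason no replicate could be left out. Depth is unknown, and narrow peaks near the lower edge of scores are the least certain.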

Other observations

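Some control peaks lay opposite to their gene, in part over annotated antisense RNAs. On the plus strand of PCDH9, which is itself transcribed from the minus strand, 4 wide control peaks were listed, among them 66303996 to 66323179 over PCDH9-AS1, with a score of 28.1, and 66825219 to 66858994 over PCDH9-AS2, with a score of 16.8. None recurred in the knockdown list. On CDH12 a plus-strand control peak of 150 kb, from 21624110 to 21774422, had the highest score of the gene (120.9) and reached past its end, and it did not recur. Of 118 control peaks on non-clustered members of known strand, 13 were on the opposite strand, and of 29 knockdown peaks 3 were. The share of opposite-strand peaks over all protein-coding genes is not given.

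In the beta cluster, whose genes are read from the plus strand, 3 of the 8 control peaks and the single knockdown peak were on the minus strand. The knockdown peak, 1410 bp wide from 141100742 to 141102151, lay on PCDHB3. A control peak on the same strand began next to it, at 141102227.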
